A study of Mus musculus with 4 samples.

Results

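Of the 56239 genes in the count table, 7 encode the Foxo and Klf transcription factors described here: Foxo1, Foxo3, Foxo4, Klf2, Klf3, Klf6 and Klf13. They were chosen by gene symbol, and each symbol matched 1 gene ID. RNA was sequenced from CD4+CD8+ double-positive (DP) thymocytes, the stage at which developing T cells carry both co-receptors, sorted from the thymus of C57BL/6 mice. The KO group had 2 libraries from mice with floxed Chaf1b alleles and Cd4-cre, labelled KO(Cd4-cre;CHAF1bfloxp/floxp). The WT group had 2 libraries from mice with the floxed alleles and no Cre in the genotype label, WT(CHAF1bfloxp/floxp). Both groups thus carried the floxed alleles, and only the KO label names the Cre transgene, driven by Cd4 sequences. The labels give neither the ages of the mice nor how many mice went into a library, so a p-value here measures only how far these libraries spread. Chaf1b encodes a subunit of chromatin assembly factor 1, which loads histones onto DNA behind the replication fork. The comparison asks how transcripts of DP thymocytes differ once Chaf1b is deleted.

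FOXO proteins are forkhead transcription factors that are switched off by growth-factor and antigen-receptor signals: the kinase AKT phosphorylates them and they leave the nucleus. When such signals are low they enter the nucleus and activate genes of cell-cycle arrest, cell death and survival, and in T cells the receptors for homing and interleukin-7. KLF proteins are zinc-finger factors that bind GC-rich and CACCC sequences. Klf2, a target of Foxo1 in T cells, drives the egress receptor S1pr1 as thymocytes mature past the DP stage, and it keeps mature T cells quiescent. Much of FOXO control acts on the protein, which transcript counts do not measure.

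Promoter sequence was available for 6 of the 7 genes, from RefSeq on GRCm38.p6. The 250 bases before the start annotated by RefSeq are shown for Klf13, Foxo1 and Klf2. Klf13 and Foxo1 had the largest differences between genotypes, and Klf2 was the member with the lowest level. Capitals mark matches on either strand to the GC box GGGCGG, to the CACCC box and, in Klf2, to a MEF2 sequence, the palindrome made of CTAAA and its reverse complement. The Foxo1 window is chr3:52268087-52268336 on the plus strand, the Klf13 window chr7:63938916-63939165 on the minus strand and the Klf2 window chr8:72318812-72319061 on the plus strand, and each is written 5′ to 3′ on the strand of its gene.
Foxo1: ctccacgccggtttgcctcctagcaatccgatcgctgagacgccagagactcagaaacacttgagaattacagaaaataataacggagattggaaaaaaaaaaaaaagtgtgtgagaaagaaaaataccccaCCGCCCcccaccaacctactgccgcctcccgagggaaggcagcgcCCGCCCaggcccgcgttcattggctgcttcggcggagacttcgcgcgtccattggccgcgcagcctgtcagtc
Klf13: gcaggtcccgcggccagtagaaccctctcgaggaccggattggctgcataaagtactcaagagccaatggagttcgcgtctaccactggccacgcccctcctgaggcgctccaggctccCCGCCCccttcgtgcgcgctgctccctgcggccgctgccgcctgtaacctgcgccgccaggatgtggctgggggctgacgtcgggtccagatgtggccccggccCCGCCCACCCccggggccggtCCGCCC
Klf2: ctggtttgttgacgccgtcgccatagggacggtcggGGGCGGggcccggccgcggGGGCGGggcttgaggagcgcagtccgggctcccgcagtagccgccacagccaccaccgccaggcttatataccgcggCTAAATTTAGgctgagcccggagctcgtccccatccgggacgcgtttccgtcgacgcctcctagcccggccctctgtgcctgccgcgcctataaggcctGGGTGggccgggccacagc
The GC box was found 2 times before Foxo1, 3 times before Klf13 and 2 times before Klf2. It was present at least once before each of the 6 members with a sequence, and in 32.7% of all 32817 promoter windows of this length. The middle GC box of Klf13 overlaps its CACCC box in the printed run. The CACCC box had 1 match before Klf2, 1 before Klf13 and 5 before Klf3, and 0 before Foxo1, Foxo3 and Klf6. At least 1 match was present in 52.0% of all windows. The Klf2 window follows the RefSeq start and reaches past 72319033, where the counted Klf2 gene begins. The CACCC match of Klf2 lies in that part, inside the counted gene. The forkhead sequence GTAAACA was found before none of the 6, against 3.16% of all windows. The exact MEF2 sequence marked before Klf2 occurs in 13 of all windows (0.0396%). Variants of it were not searched, so this is not the share of windows with any MEF2 site. MEF2 factors, acting downstream of the kinase ERK5, are known activators of Klf2. The windows were GC-rich, with 78.4% G and C for Klf3, 76.4% for Foxo3, 71.6% for Klf13, 71.2% for Klf2, 64.8% for Klf6 and 56.0% for Foxo1, against a median of 52.4% over all windows. These matches describe letters in a window and do not show binding.

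The 4 libraries held 21068760 to 27369874 counts. In each genotype replicate 1 came from female and replicate 2 from male mice, with 47301 and 47368 counts of Xist in replicate 1 against 12 and 8 in replicate 2. KO replicate 1 minus WT replicate 1 is therefore called the female pair, and KO replicate 2 minus WT replicate 2 the male pair. The deleted gene itself was lower in both KO libraries, at 12.2 and 14.8 CPM (the count scaled to library size with TMM factors), against 27.9 and 31.7 CPM of Chaf1b in WT (edgeR log2 fold change -1.14 ± 0.16, SE; adjusted p = 0.267 without and 0.0172 with a term for sex). KO replicate 1 stood apart: mitochondrial transcripts made up 3.30% of its counts and 2.03% of those of KO replicate 2, against 1.33% and 1.45% in WT. The 13 DP marker genes were all measured, with Cd4 at 2066 and 1896 CPM in KO and 1814 and 1887 CPM in WT, and Cd8a at 2762 and 3368 CPM in KO and 3424 and 3507 CPM in WT. Of the markers of other cells, Pax5, S100a8, Ncr1, Klrd1, Xcr1 and Foxn1 were below 0.5 CPM in every library. Other genes of the same lists were measured, with Ighm at 462 and 463 CPM in KO and 471 and 404 CPM in WT, Pecam1 at 145 and 167 CPM in KO and 141 and 159 CPM in WT, Trdc at 96.6 and 89.2 CPM in KO and 88.0 and 75.5 CPM in WT, and Bst2 at 31.0 and 37.8 CPM in KO and 35.2 and 30.5 CPM in WT.

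All 7 genes passed the filter on low counts. Per kilobase of exon, Klf13 had the highest level, at 232 and 111 CPM per kb in KO replicates 1 and 2 and 91.5 and 91.0 CPM per kb in WT. Foxo4, Foxo3, Klf3 and Klf6 followed, with levels of 19.1 to 42.3 CPM per kb over the 4 libraries. Their ranges overlapped from each neighbour to the next, so no full order among these 4 is drawn. Foxo4, at 29.9 to 33.7 CPM per kb, did lie above Klf3 (24.3 to 27.5) and Klf6 (19.1 to 24.8). Foxo1 stood below them at 5.49 to 12.4 CPM per kb, and Klf2 was lowest at 1.70 to 2.42 CPM per kb. The level of Klf13 was 2.70 to 7.75 times that of Foxo4 within a library, and the level of Foxo1 was 2.49 to 5.59 times that of Klf2. Klf2, which marks maturation, was thus the least abundant member at the DP stage in both genotypes.

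**Figure D1:**
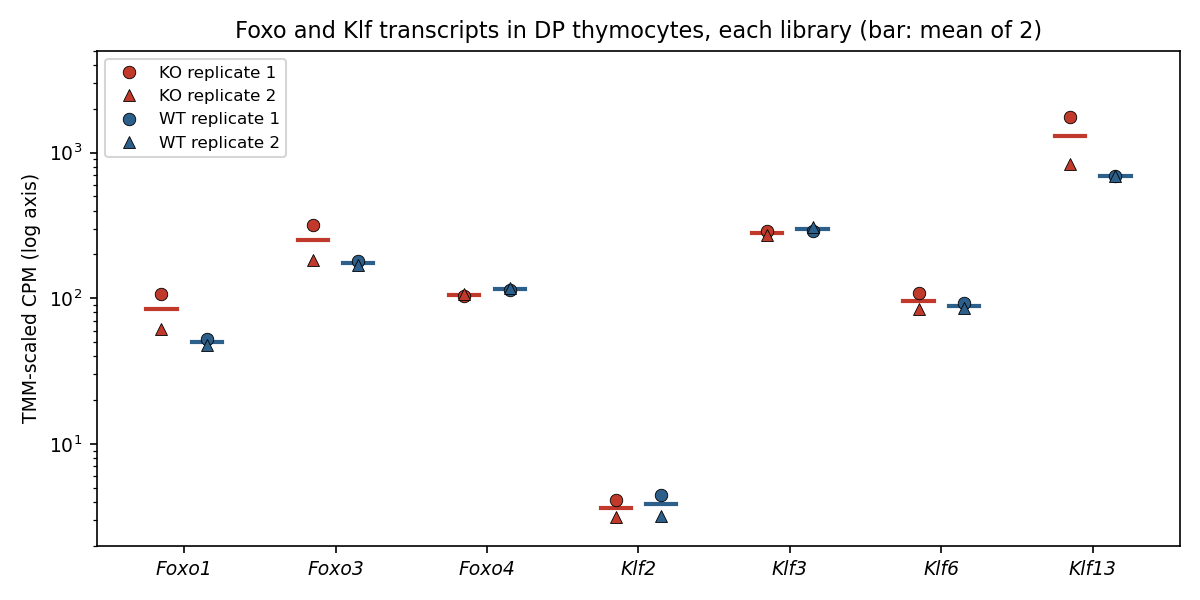
TMM-scaled CPM (log axis) of each member in the 2 KO libraries (red) and the 2 WT libraries (blue); circles are replicate 1, triangles replicate 2 and bars the mean of 2. Klf13, Foxo3 and Foxo1 have their highest value in KO replicate 1, while the WT libraries lie close together, for Klf13 at 689 and 685 CPM.

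Foxo1 rose in KO when sex was in the model, and was the only member called there. Foxo1 had 107 and 61.2 CPM in KO replicates 1 and 2, against 52.2 and 47.6 CPM in WT replicates 1 and 2. Both KO libraries lay above both WT libraries, and KO replicate 2 was far nearer to WT than to KO replicate 1. The means were 84.3 ± 32.7 CPM in KO and 49.9 ± 3.29 CPM in WT (SD, n = 2 each), a ratio of 1.69. In edgeR without a sex term the log2 fold change of Foxo1 was 0.76 ± 0.26 (SE; adjusted p = 0.267), and with the sex term it was 0.70 ± 0.17 (adjusted p = 0.0442). The female libraries differed by 1.04 on the log2 scale and the male libraries by 0.36. Without KO replicate 1 the edgeR log2 fold change of Foxo1 was 0.30 (adjusted p = 0.116), and without KO replicate 2 it was 1.10 (adjusted p = 3.89e-05). Of the 8665 exon bases of Foxo1 (ENSMUSG00000044167, chromosome 3, 52268336 to 52353221, GRCm38), 7.78% also lie in the antisense gene Gm20402, which had 0 counts in all 4 libraries. Fragments there were counted for neither gene.

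Foxo3 (ENSMUSG00000048756, chromosome 10, 42181841 to 42276755), which induces the death gene Bcl2l11, followed Foxo1 in KO replicate 1 and lay near WT in KO replicate 2. Its values were 321 and 184 CPM in KO replicates 1 and 2, against 181 and 168 CPM in WT. The groups did not overlap, but the lower KO library of Foxo3 exceeded the higher WT library by less than the gap between the WT libraries. In edgeR its log2 fold change was 0.53 ± 0.26 (SE; adjusted p = 0.332) without a sex term and 0.48 ± 0.18 (adjusted p = 0.160) with it. Without KO replicate 1 the edgeR value of Foxo3 was 0.08 (adjusted p = 0.640), and without KO replicate 2 it was 0.87 and called (adjusted p = 2.32e-05). The female libraries differed by 0.83 on the log2 scale and the male libraries by 0.13.

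Foxo4 (ENSMUSG00000042903, chromosome X, 101254528 to 101260873), the X-linked member, had the opposite sign. It had 104 and 106 CPM in KO, against 114 and 118 CPM in WT. Its replicates agreed closely within each genotype and both KO libraries lay below both WT libraries, yet edgeR did not call it (log2 fold change -0.14 ± 0.10, SE; adjusted p = 0.516). The pair differences of Foxo4 were -0.12 and -0.15, close to each other in the female and male pairs.

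Klf13 (ENSMUSG00000052040, chromosome 7, 63886351 to 63938915), a factor known in T cells for activating the chemokine gene Ccl5, had the largest difference of the 7. It had 1747 and 834 CPM in KO replicates 1 and 2, against 689 and 685 CPM in WT. Both KO libraries were above WT, and the gap between them was larger than the gap between KO replicate 2 and WT. The means were 1290.5 ± 645 CPM in KO and 687 ± 2.99 CPM in WT (SD, n = 2 each), a ratio of 1.88. In edgeR the log2 fold change of Klf13 was 0.91 ± 0.34 (SE; adjusted p = 0.281) without a sex term and 0.81 ± 0.26 (adjusted p = 0.103) with it, so neither fit called the gene. The log2 differences of Klf13 were 1.34 between the female and 0.28 between the male libraries. DESeq2 without a sex term called Klf13 (adjusted p = 0.0468), and so did edgeR without KO replicate 1 (log2 fold change 0.28; adjusted p = 0.0470). Without KO replicate 2 the edgeR value of Klf13 was 1.34 (adjusted p = 1.46e-05).

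Klf2 (ENSMUSG00000055148, chromosome 8, 72319033 to 72321656) was low in every library, with 93 and 68 counts in KO and 106 and 91 counts in WT. That is 4.10 and 3.15 CPM in KO, against 4.47 and 3.21 CPM in WT, and the groups overlapped. Its edgeR log2 fold change of -0.08 ± 0.30 (SE; adjusted p = 0.904) had, after that of Klf13, the widest error of the members. A change the size of that error, or somewhat larger, could not be seen with these libraries.

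Klf3 (ENSMUSG00000029178, chromosome 5, 64803388 to 64832901), a repressor that recruits the co-repressor CtBP, had 290 and 273 CPM in KO, against 290 and 309 CPM in WT. KO replicate 1 equalled WT replicate 1, so the groups overlapped, and the edgeR log2 fold change was -0.09 ± 0.12 (SE; adjusted p = 0.709). The first exon of Klf3 is shared with the opposite-strand transcript Gm20033, which takes 3.59% of the exon bases of Klf3 (404 bases). Gm20033, singled out after its values were seen, had 79 and 229 counts in KO and 374 and 609 counts in WT. In CPM these are 3.48 and 10.6 in KO, against 15.8 and 21.5 in WT. Gm20033 fell in the edgeR fit with the sex term (log2 fold change -1.56 ± 0.26, SE; adjusted p = 0.0196), and was not called without it (adjusted p = 0.269). Since counting used no strand, fragments of the 2 genes in the shared exon cannot be told apart and were counted for neither.

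Klf6 (ENSMUSG00000000078, chromosome 13, 5861482 to 5870394), a widely expressed factor of the same family, had 109 and 83.8 CPM in KO, against 92.1 and 85.6 CPM in WT. The WT libraries lay between the KO libraries, and the edgeR log2 fold change of 0.12 ± 0.15 (SE; adjusted p = 0.708) was not called. Without KO replicate 2 edgeR called Klf6 at 0.29 (adjusted p = 0.0192), and without KO replicate 1 it was at -0.079 (adjusted p = 0.705).

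**Figure D2:**
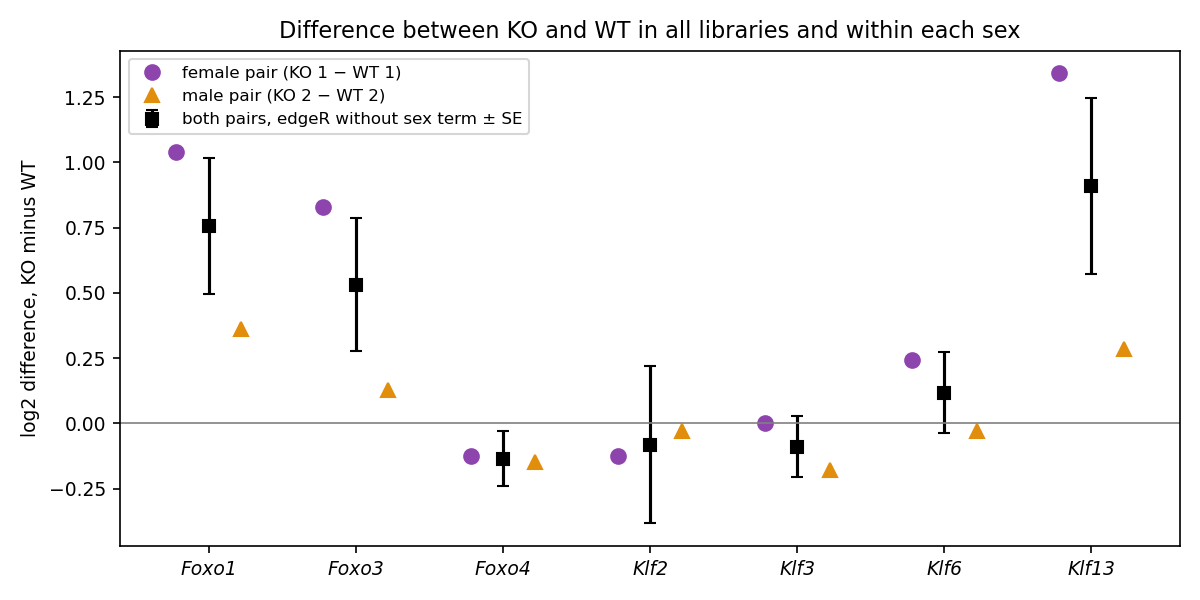
Log2 difference, KO minus WT, of each member: squares are edgeR fold changes over all 4 libraries without a sex term (bars: SE), circles the female pair and triangles the male pair. For Klf13 the female pair is at 1.34 and the male pair at 0.28, while Foxo4 has nearly the same value in both pairs.

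Counted together, 3 members (Foxo1, Foxo3 and Klf13) had both KO libraries above both WT libraries, 1 (Foxo4) had both below, and 3 overlapped. Of all tested genes 56.3% did not overlap between the groups (27.9% higher and 28.4% lower in KO), so 4 of 7 is near that background. Without a sex term edgeR called 0 of the 7 at an adjusted p under 0.05, against 0.00664% of all 15070 tested genes. At an unadjusted p under 0.05 it took 2 of the 7, Foxo1 and Klf13, against 16.8% of all genes. DESeq2 called 1 of the 7 (2.97% of all genes), limma-voom called 0 (0.00664%), and edgeR with the sex term called 1 (3.21%). Without a filter on low counts edgeR called 3 (5.63%), without KO replicate 1 it called 1 (3.31%) and without KO replicate 2 it called 4 (32.3%). The median log2 fold change of the members was 0.12 beside 0.00 for all tested genes. Whether more RNA per cell or a different mix of cells gave these levels cannot be told apart in bulk RNA.

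The members that differed most between genotypes were also those that differed most between the KO libraries. KO replicate 1 exceeded KO replicate 2 by 1.07 on the log2 scale for Klf13, 0.81 for Foxo1 and 0.80 for Foxo3. Of all tested genes, 7.80% had a gap at least as large as that of Klf13, 12.9% one as large as that of Foxo1 and 13.3% one as large as that of Foxo3. The same difference between the WT libraries was 0.01 for Klf13, 0.13 for Foxo1 and 0.10 for Foxo3. Foxo4 and Klf3 had KO gaps of -0.03 and 0.08, and Klf2 and Klf6 had gaps of 0.37 and 0.38. The median absolute gap over all tested genes was 0.29 between the KO libraries and 0.13 between the WT libraries. KO replicate 1 is also the library with the highest mitochondrial share, and its part in these differences was not tested. In the male pair, which does not include it, the log2 differences were 0.36 for Foxo1, 0.28 for Klf13 and 0.13 for Foxo3, against 1.04, 1.34 and 0.83 in the female pair.

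**Figure D3:**
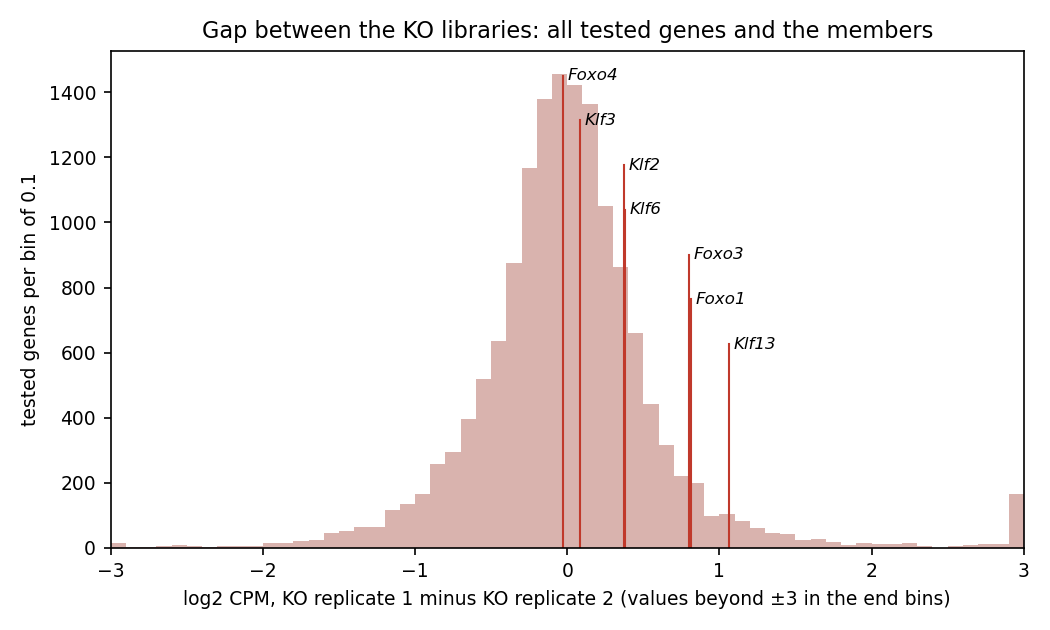
Number of tested genes by the log2 CPM difference of KO replicate 1 minus KO replicate 2, in bins of 0.1, with red lines at the members. Foxo3, Foxo1 and Klf13 stand on the right side, at 0.80 to 1.07, and Foxo4 and Klf3 near 0.

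Shares within each family, which do not depend on scaling between libraries, showed the same split. Foxo1 made up 14.6% and 11.4% of the summed Foxo level per kb in KO, against 9.65% and 8.93% in WT. Foxo3 made up 50.01% and 39.3% in KO, against 38.2% and 36.2% in WT. Foxo4 made up 35.3% and 49.3% in KO, against 52.2% and 54.9% in WT. The KO values did not overlap those of WT for any of these genes, with Foxo1 and Foxo3 higher and Foxo4 lower. In CPM, 56.3% of all tested genes did not overlap between the groups. These shares come from the same counts as the levels above and are not separate support for them. The shares sum to the whole, so higher Foxo1 and Foxo3 lower the share of Foxo4 by construction. The share of Foxo1 averaged 13.0% ± 2.27 in KO and 9.29% ± 0.505 in WT (SD, n = 2 each; exact two-sided permutation p = 0.333, the smallest that 2 against 2 libraries can give).

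Among the Klf members, Klf13 made up 81.4% and 71.1% of the summed level per kb in KO, against 65.0% and 65.1% in WT. Klf3 made up 9.06% and 15.6% in KO, against 18.3% and 19.7% in WT, and Klf6 8.72% and 12.2% in KO, against 14.9% and 14.0% in WT. The share of Klf2 was 0.780% and 1.09% in KO, against 1.72% and 1.24% in WT. It averaged 0.936% ± 0.221 in KO and 1.48% ± 0.337 in WT (SD, n = 2 each; exact two-sided permutation p = 0.333, again the smallest possible). Because Klf13 dominates the sum, a higher Klf13 lowers the other shares by construction. The ratio of Foxo1 to Foxo3 within a library was 0.293 and 0.291 in KO, against 0.253 and 0.247 in WT. It was nearly equal in the KO libraries although their levels of both genes differed.

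**Figure D4:**
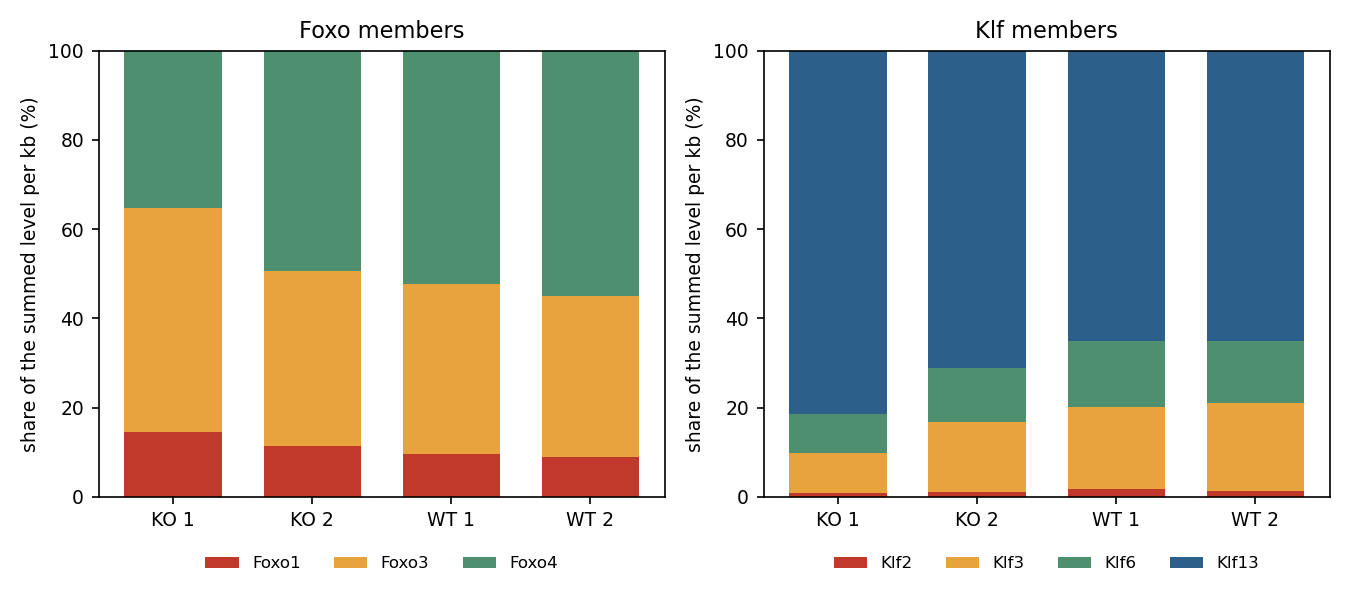
Share (%) of each gene in the summed level per kb of the Foxo members (left) and of the Klf members (right) in KO replicates 1 and 2 and WT replicates 1 and 2. Foxo4 is at 35.3% in KO replicate 1 and Klf13 reaches 81.4% there, while the WT libraries are nearly alike.

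Genes that FOXO proteins are known to activate lay on both sides of 0. Of 36 listed target genes 33 were tested, and neither edgeR fit called one; 3 higher and 5 lower genes had an unadjusted p under 0.05 without the sex term. Of the tested targets 9 had both KO libraries above WT, 9 had both below and 15 overlapped, with a median log2 fold change of 0.00. Over all tested genes 27.9% had both KO libraries above WT and 28.4% had both below. The recombinase gene Rag1 had 10239 and 6083 CPM in KO, against 5780 and 5478 CPM in WT, again with its highest value in KO replicate 1. Txnip, which limits glucose uptake, had 430 and 436 CPM in KO, against 592 and 544 CPM in WT (edgeR log2 fold change -0.39; adjusted p = 0.267). Sesn1, a stress-induced inhibitor of mTORC1, had a log2 fold change of -0.19, the cell-cycle inhibitor gene Cdkn1b one of -0.10 and the mTORC2 subunit gene Rictor one of 0.04. Bcl2l11, which encodes the death protein BIM, had 98.3 and 102 CPM in KO, against 104 and 96.9 CPM in WT. Gadd45b and Cdkn1a marked the ends of the list at -1.16 and 0.99, chosen after their values were seen, and both have low levels, with 4.67 and 2.50 CPM of Cdkn1a in KO, against 2.11 and 1.52 CPM in WT.

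Of 10 listed genes tied to Klf2, 5 were tested and neither edgeR fit called one. Of the 5, 4 were above WT in both KO libraries, beside 27.9% of all tested genes, and 1 overlapped. S1pr4, a sphingosine phosphate receptor, had a log2 fold change of 0.17 without the sex term. These 5 are the ones that passed the filter and do not stand for the list. S1pr1, the egress receptor, had 3 and 5 counts in KO and 8 and 4 counts in WT and was not tested. Itgb7, an integrin chain for gut homing, had 33.1 and 31.5 CPM in KO, against 25.9 and 24.8 CPM in WT (edgeR log2 fold change 0.35 ± 0.12, SE; adjusted p = 0.267 without and 0.220 with the sex term). The chemokine receptor gene Ccr7 had 7.63 and 5.74 CPM in KO, against 6.16 and 3.49 CPM in WT, and Il7r was near 0 with 0.309 and 1.06 CPM in KO, against 0.380 and 0.423 CPM in WT. Ccl5, the Klf13 target, had 0.705 and 1.11 CPM in KO, against 0.549 and 0.988 CPM in WT. Lgals3, which Klf3 represses, had 34 and 27 counts in KO, against 26 and 37 counts in WT. The groups of these last 4 genes overlapped and edgeR called none of them; Ccr7 was higher in KO in both pairs, by 0.30 and 0.70 on the log2 scale, and Ccl5 by 0.32 and 0.16.

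Transcripts of mature single-positive thymocytes, where Foxo1 and Klf2 act, showed no common direction. Of 17 listed genes other than the members 16 were tested, and 6 had both KO libraries above WT, 4 had both below and 6 overlapped. The shares over all tested genes were 27.9% above and 28.4% below. Ly6c1 was the gene called, with 7.23 and 6.20 CPM in KO, against 0.717 and 1.02 CPM in WT (edgeR log2 fold change 2.93 ± 0.34, SE; adjusted p = 0.00397 with the sex term and 0.267 without), and Ly6c1 has close paralogs, for which shared reads were not measured here. The summed level of the list was 1550 and 1627 CPM in KO, against 1799 and 1576 CPM in WT, and so overlapped. The summed level of 11 NK-cell and gamma-delta T-cell marker genes, cells which also use Foxo1 and Klf2, was higher in KO. It was 162 and 129 CPM in KO, against 118 and 99.5 CPM in WT, most of it Trdc and Gzma. Of these 11 genes 6 were tested, and 4 of them were above WT in both KO libraries, beside 27.9% of all tested genes. The other tested genes, Sox13 and Fcer1g, overlapped between the groups. The 6 are the ones that passed the filter and do not stand for the list. Gzma, a granzyme gene with 54.5 and 31.2 CPM in KO, against 22.4 and 17.6 CPM in WT, was called by edgeR with the sex term (adjusted p = 0.0194) and not without it (adjusted p = 0.267). Klrd1, Ncr1 and Gzmb had 0 counts in all 4 libraries. The 8 B-cell markers summed to 495 and 493 CPM in KO, against 489 and 427 CPM in WT, most of it Ighm. Among them Cd79b, a chain of the B-cell receptor, had 30.6 and 28.8 CPM in KO, against 15.7 and 19.6 CPM in WT, and rose in edgeR with the sex term (log2 fold change 0.76 ± 0.17, SE; adjusted p = 0.0413 with the term and 0.267 without). Ly6c1, Gzma and Cd79b are named because they were called, after their values were seen. The 10 macrophage and granulocyte markers summed to 17.8 and 21.0 CPM in KO, against 23.1 and 21.98 CPM in WT. The summed levels of the dendritic, erythroid and stromal lists overlapped between the genotypes. The part of such cells in the levels of Foxo1 and of the genes tied to Klf2 was not tested.

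Upstream, transcripts of the PI3K-AKT pathway that holds FOXO proteins in the cytoplasm were not called. All 23 listed genes were tested, with 10 above WT in both KO libraries, 4 below and 9 overlapping, and a median log2 fold change of 0.10. The shares above and below over all tested genes were 27.9% and 28.4%. Pik3r1, a regulatory subunit of PI3K, had 450 and 298 CPM in KO, against 276 and 281 CPM in WT. It again stood out in KO replicate 1. Of 27 genes that modify or bind FOXO proteins none was called, with 4 above, 10 below and 13 overlapping. Ogt, which attaches sugar groups to FOXO1 among other proteins, had 680 and 794 CPM in KO, against 1045 and 1057 CPM in WT (edgeR log2 fold change -0.51 ± 0.15, SE; adjusted p = 0.267 without and 0.167 with the sex term). Usp7, a deubiquitinase of FOXO4, had a log2 fold change of -0.16. Stub1, a ubiquitin ligase for FOXO1 and singled out after its values were seen, had 22.9 and 37.6 CPM in KO, against 48.6 and 48.4 CPM in WT and missed the threshold in edgeR with the sex term (log2 fold change -0.72 and adjusted p = 0.0512 with it).

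Of the 12 genes that act upstream of Klf2, 11 were tested and none was called, with 4 above, 3 below and 4 overlapping. Over all tested genes 27.9% were above and 28.4% below. Mef2d, a gene of the MEF2 family, is among the most abundant of these upstream genes. It had 411 and 395 CPM in KO, against 539 and 505 CPM in WT (edgeR log2 fold change -0.37 ± 0.13, SE; adjusted p = 0.267 without and 0.246 with the sex term). Hdac7, a deacetylase that keeps MEF2 factors repressed in DP thymocytes, had 1000 and 1079 CPM in KO, against 1398 and 1239 CPM in WT. Both genes were lower in both KO libraries without passing the test, and Klf2 itself overlapped between the groups.

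Other family members and quiescence genes were not called either. Beside the counts given here, 27.9% of all tested genes had both KO libraries above WT and 28.4% had both below. Of 13 tested other Klf and Sp factors 2 were above WT in both KO libraries, 5 were below and 6 overlapped (median log2 fold change -0.21), and their most abundant genes, Sp1 and Sp3, had log2 fold changes of 0.09 and 0.02. Of 12 tested other forkhead factors 2 were above, 2 below and 8 overlapped (median 0.09); Foxp1, which restrains T cell activation, had 208 and 163 CPM in KO, against 150 and 150 CPM in WT, and Foxn3 had a log2 fold change of 0.22. Of 20 quiescence genes 11 were above, 4 below and 5 overlapped (median 0.14), with Btg2, an anti-proliferative gene, at 0.08 and the T cell factor gene Tcf7 at -0.09. Vsir, an inhibitory receptor gene with the largest value of that list and named for it after the fact, had 167 and 134 CPM in KO, against 96.7 and 101 CPM in WT (edgeR log2 fold change 0.59 and adjusted p = 0.0527 with the sex term).

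**Figure D5:**
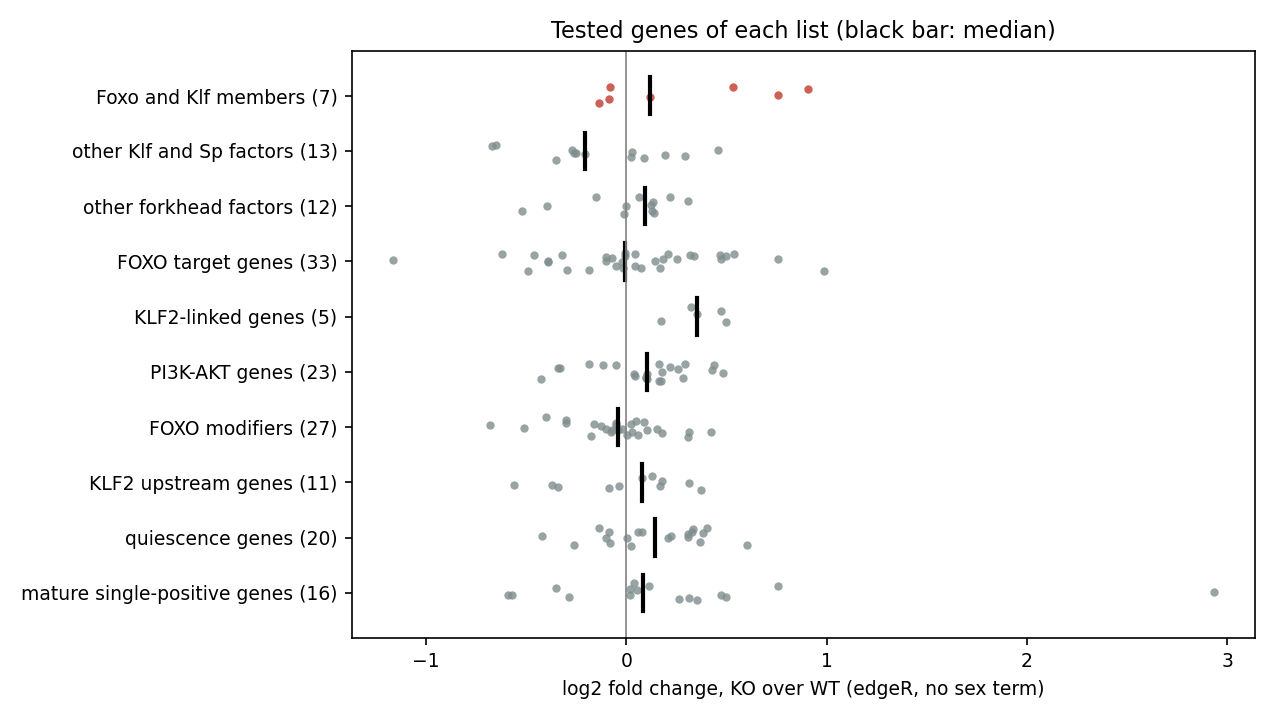
Log2 fold change, KO over WT, in edgeR without the sex term for every tested gene of each list (number of tested genes in parentheses; black bars are medians). The members reach from -0.14 to 0.91, and the lists spread on both sides of 0 except for the 5 tested genes tied to Klf2.

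Among coding genes with a mean of at least 20 CPM, those whose centred log2 CPM values lay nearest to Foxo1 over the 4 libraries were Glg1, Clasp2 and Padi2, at Euclidean distances of 0.05, 0.05 and 0.06. Clasp2, for example, had 105 and 62.1 CPM in KO, against 52.4 and 49.0 CPM in WT. Foxo3 and Klf13 lay at distances of 0.23 and 0.23 from Foxo1, within the nearest 1.89% and 1.93% of the 7054 candidates. Foxo4 was at 1.03, farther than 65.0% of them. Nearest to Klf2 were Zfp451, Ino80d and Nfat5, at distances of 0.04, 0.04 and 0.10; Zfp451 had 129 and 101 CPM in KO, against 140 and 104 CPM in WT. A distance over 4 libraries says that the values run alike in these libraries and no more.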

How the data were processed

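RNA-seq counts of sorted DP thymocytes (2 KO and 2 WT libraries) were analysed. The libraries were made from poly(A) RNA, per the labels' protocols. The submitters' processing notes name GRCm38, HISAT2, DESeq2, featureCounts 1.6.4, Trim Galore 0.5.0 and FastQC. Per the file headers, the authors counted paired fragments over exons of Ensembl 98 with featureCounts 1.6.3, and the table holds these raw counts as deposited, without strand and with no option for multi-mapped fragments or fragments over several genes, so such fragments are missing from genes with copies or overlaps. The authors' table also holds the exon length of each gene, used here for levels per kilobase. Symbols came from GENCODE M21 on GRCm38 (98.1% of IDs matched); coordinates of genes are those of the deposited table.

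In R 4.3.3, genes were kept by filterByExpr of edgeR 4.0.16 (15070 genes), scaled with TMM factors (0.919 to 1.04) and compared between KO and WT by the quasi-likelihood test of edgeR, with p-values adjusted by Benjamini and Hochberg's method over all tested genes, a threshold of 0.05 and 2 residual degrees of freedom. SE is the absolute log2 fold change over the square root of F. A second fit added the replicate number; since this number separates the sexes it is named the sex term (1 residual degree of freedom); any batch shared by a replicate number cannot be told apart from sex in it. It was set up as an alternative and is given in the results because the sexes differ by replicate. Differences between single libraries use log2 CPM (prior count 2). Alternatives were other scalings, no filter, DESeq2 1.42.0, limma-voom (limma 3.58.1), robust dispersion and each library left out. Replicates were separate libraries: chi-square per degree of freedom over genes was 51.2 between the KO and 11.3 between the WT libraries. Genes were named by a written rule: the 7 members, Chaf1b, 11 target genes, up to 4 called or else the 2 most abundant genes of each list, and the 3 genes nearest to Foxo1 and to Klf2. Some genes that this rule names are not reported here. The members and the lists were chosen with earlier results of these data known. The fits were run on simulated counts that held neither a difference between the sexes nor the deviation of KO replicate 1. This run therefore does not show how well the fits perform on these libraries.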

Additional observations from a re-analysis of the deposited data

Results flagged for a closer look

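The following results had opposite signs in the female and the male pair, each pair being 1 KO minus 1 WT library, so the difference between the sexes was not tested. Among the members, Klf6 had log2 differences of 0.243 (female) and -0.0306 (male), and Klf3 had 9.96e-05 in the female pair, in effect 0, and -0.178 in the male pair. Among genes named with them, Sp1 had 0.221 and -0.0719, Sp3 had 0.0655 and -0.0172, Rictor had 0.105 and -0.0298 and Bcl2l11 had -0.0788 and 0.071 in the female and male pairs. Lgals3 had 0.423 and -0.0592, and Il7r had -0.241 and 1.18, both with low counts.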

How the results depend on the processing

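Without the sex term edgeR called 1 gene higher and 0 lower in KO, 0 of the 7 members and 0 genes of the 9 lists that are not markers of other cells. With the replicate block, which is the sex term, it called 152 higher, 331 lower, 1 member (Foxo1) and 1 list gene. With no filter it called 627 higher, 838 lower, 3 members (Foxo1, Foxo3 and Klf13) and 14 list genes. DESeq2 called 172 higher, 276 lower, 1 member (Klf13) and 3 list genes. Leaving out 1 library at a time gave 1 to 2518 higher and 0 to 2630 lower genes, 0 to 4 members and 0 to 69 list genes: without KO replicate 1 there were 171 higher, 349 lower, 1 member (Klf13) and 6 list genes, without KO replicate 2 there were 2518, 2630, 4 members (Foxo1, Foxo3, Klf6 and Klf13) and 69 list genes, and without WT replicate 1 there were 2 higher genes. The other scalings, limma-voom and robust dispersion left these counts at 1, 0, 0 and 0. Of 84 member values under 12 alternatives each, 71 kept direction and side of the threshold, 10 became called in the same direction, and 3 changed sign: Klf6 to -0.079 without KO replicate 1 (range with 1 library left out -0.079 to 0.29), and Klf2 to 0.09 without KO replicate 2 and 0.18 without WT replicate 1 (range -0.30 to 0.18). Library totals moved the median of all genes to -0.08, and Foxo1 was at 0.65 and Klf13 at 0.80 there. The differences in share of Foxo1 and Klf2 kept their sign with each library left out and without length scaling. Library deviations of the same replicate number correlated at 0.472 across genes, but the numbers pair the libraries by the sex seen in the data and not by the labels. The replicate block could not be fitted with a library left out. Klf2, S1pr1 and Il7r are limited by their low counts. None of them had a count of 0, which at this depth allows up to 0.142 CPM. The SE of a fold change comes from the edgeR fit and includes the spread between libraries.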
